A study of Mus musculus with 6 samples.

Results

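The genes described here are 10 that mark alternative activation of macrophages or the macrophages of brain borders: Arg1, Chil3, Retnla, Mrc1, Cd163, Folr2, Cbr2, Il4ra, Tgm2 and Socs2. They were taken as every probe set whose array annotation gives exactly 1 gene symbol, where that symbol is in this list. All 10 genes were found, with 22 probe sets of the 45101 on the array, and are 10 of the 18193 genes that it names by 1 symbol. The choice used gene names and no signal. Of the 22 probe sets, 16 from 7 genes were bright enough to be tested, and 6 were not, which leaves Chil3, Retnla and Cd163 with values only.

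Alternative activation is the state that macrophages take up under the cytokines IL-4 and IL-13. These bind receptors that share the chain encoded by Il4ra, and the signal passes through JAK kinases to the transcription factor STAT6, which turns on genes such as Arg1, Chil3, Retnla, Mrc1 and Tgm2. In the brain, Mrc1, Cd163, Folr2 and Cbr2 are known as genes of macrophages in the meninges and around vessels, which sit beside but apart from the microglia of the parenchyma. Cultured microglia can take up parts of either programme.

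The samples were primary mouse microglial cultures, 3 labelled Dap12-ko (Dap12-deficient) and 3 labelled wt (wild-type), with 1 single-colour oligonucleotide array each. Dap12, encoded by Tyrobp, is an ITAM adaptor through which myeloid receptors such as Trem2 signal to the kinase Syk. No treatment, strain, age or sex is given in the labels used here, and 4 titles, 2 per group, hold 2 joined numbers whose meaning is not stated. Whether the cultures came from separate animals is not stated, and every p-value here rests on culture-to-culture spread, which may be technical. Signals are linear intensities in units of the scanner software, and fold changes are differences of log2(signal + 16), Dap12-deficient minus wild-type.

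Tyrobp checked the labels: it gave 5584, 7271 and 5396 (wild-type 1, 2 and 3) against 125, 96.4 and 96.2 (Dap12-deficient 1, 2 and 3), and so fell (log2 difference -5.64, limma adjusted p = 8.14e-07). Over all probe sets, Dap12-deficient array 2 correlated more with the wild-type arrays (mean r = 0.981) than with its own group (0.971), whereas wild-type arrays correlated at 0.982 to 0.984 within their group. The 3′ to 5′ signal ratio of the Gapdh control probe sets, a sign of transcript length, was 3.21 to 3.39 in wild-type against 2.52 to 3.58 in Dap12-deficient cultures. All 15 measured genes listed for microglia reached the brightness filter. They ran from the dim Slc2a5 at 11.98 to 17.9 and Siglech at 15.7 to 38.3 up to Fcrls at 4280 to 7360. The brightest was Csf1r, the receptor of colony-stimulating factor 1, at 6583, 9522 and 6339 in wild-type against 8252, 7984 and 5439 in Dap12-deficient cultures.

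Promoter windows of 300 bases, from 250 before to 50 after the transcript start, were found in RefSeq (GRCm38.p6) for 7 of the 10 genes, as 8 windows. No entry was used for Arg1, Tgm2 and Socs2. Each 5′ to 3′ sequence below is on the gene's strand. Capitals mark matches to the STAT6-type motif TTCNNNNGAA, the STAT-type motif TTCNNNGAA and the PU.1-type motif GAGGAAG, on either strand. Retnla is shown as a textbook target of STAT6, and Mrc1, Folr2 and Cbr2 because their arrays did not overlap between the groups.
Retnla, chr16:48842359-48842658, plus strand: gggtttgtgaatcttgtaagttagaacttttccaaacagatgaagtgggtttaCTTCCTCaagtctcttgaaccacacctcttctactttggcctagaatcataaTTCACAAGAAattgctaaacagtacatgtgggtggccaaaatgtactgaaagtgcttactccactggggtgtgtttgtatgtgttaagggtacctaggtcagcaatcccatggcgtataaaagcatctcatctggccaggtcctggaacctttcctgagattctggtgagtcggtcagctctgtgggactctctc
Mrc1, chr2:14229164-14229463, plus strand: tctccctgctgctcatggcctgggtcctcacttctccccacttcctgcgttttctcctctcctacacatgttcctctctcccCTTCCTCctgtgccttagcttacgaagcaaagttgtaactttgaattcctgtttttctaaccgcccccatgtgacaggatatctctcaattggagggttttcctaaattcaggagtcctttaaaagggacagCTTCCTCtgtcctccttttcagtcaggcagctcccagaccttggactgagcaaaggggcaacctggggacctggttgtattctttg
Folr2, chr7:101857141-101857440, minus strand: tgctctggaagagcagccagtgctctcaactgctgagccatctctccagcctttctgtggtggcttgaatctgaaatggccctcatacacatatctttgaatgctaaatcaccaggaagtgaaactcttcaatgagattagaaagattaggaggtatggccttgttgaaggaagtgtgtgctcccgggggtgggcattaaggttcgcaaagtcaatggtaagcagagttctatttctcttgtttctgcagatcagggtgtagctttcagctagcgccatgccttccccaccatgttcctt
Cbr2, chr11:120731972-120732271, minus strand: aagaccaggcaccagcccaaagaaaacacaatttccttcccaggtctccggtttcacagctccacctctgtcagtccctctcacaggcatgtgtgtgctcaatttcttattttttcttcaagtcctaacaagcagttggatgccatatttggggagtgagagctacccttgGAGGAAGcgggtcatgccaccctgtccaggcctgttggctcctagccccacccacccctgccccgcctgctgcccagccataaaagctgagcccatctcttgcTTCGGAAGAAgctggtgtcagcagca
The STAT6-type motif occurred in 2 of the 8 windows, those of Retnla and Cbr2, and in 6.95% of all 32851 windows of this length. In Retnla the match lay 145 bases before the start, and in Cbr2 it lay after the start, from base 25 to base 34 of the transcript. The STAT-type motif occurred in 1 of the 8, that of Chil3, and in 8.3% of all. The PU.1-type motif, named after the factor that defines the macrophage lineage, occurred in 3 of the 8 windows and in 13.6% of all. Mrc1 had 2 such matches, Retnla 1 and Cbr2 1, and neither window of Folr2 held any of these 3 motifs. The matches in the printed windows did not overlap one another. They describe letters and are not evidence of a bound factor.

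None of the 10 genes passed the threshold, an adjusted p under 0.05 over all 27022 probe sets tested. In limma, 0 of 16 tested probe sets passed, with adjusted p from 0.313 to 0.997, where 0.0074% of all tested did (2 probe sets, both lower). At an unadjusted p under 0.05 there were 8 of 16, against 10.7% of all tested, and 5 of these 8 belong to Tgm2. Of the 8, 6 were higher, against 7.05% of all tested, and 2 lower, against 3.61%. The groups did not overlap on 9 of 16 probe sets, against 16.5% of all tested, with 7 higher against 9.6% and 2 lower against 6.89%. With a common median for all arrays, 3 were higher, 2 lower and 11 overlapped. The share over all tested probe sets was not counted under that scaling. Counted by the brightest tested probe set of each gene, they did not overlap for 5 of 7 genes, against 16.4% of 12875 genes. Tgm2, Mrc1 and Cbr2 lay higher (3 of 7, against 7.54% of genes) and Folr2 and Arg1 lower (2 of 7, against 8.85%), whereas Il4ra and Socs2 overlapped. The median log2 difference of these 7 genes was 0.00, against -0.03 over all 12875, with 4 higher and 3 lower. Over the 16 probe sets it was 0.36, against 0.03 over all tested, with 13 higher and 3 lower, and 6 of the 13 are from Tgm2. Arg1 and the dimmest Tgm2 probe set passed the brightness filter through the group where they were high, which by itself favours a difference, and so these counts only describe the genes.

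**Figure D1:**
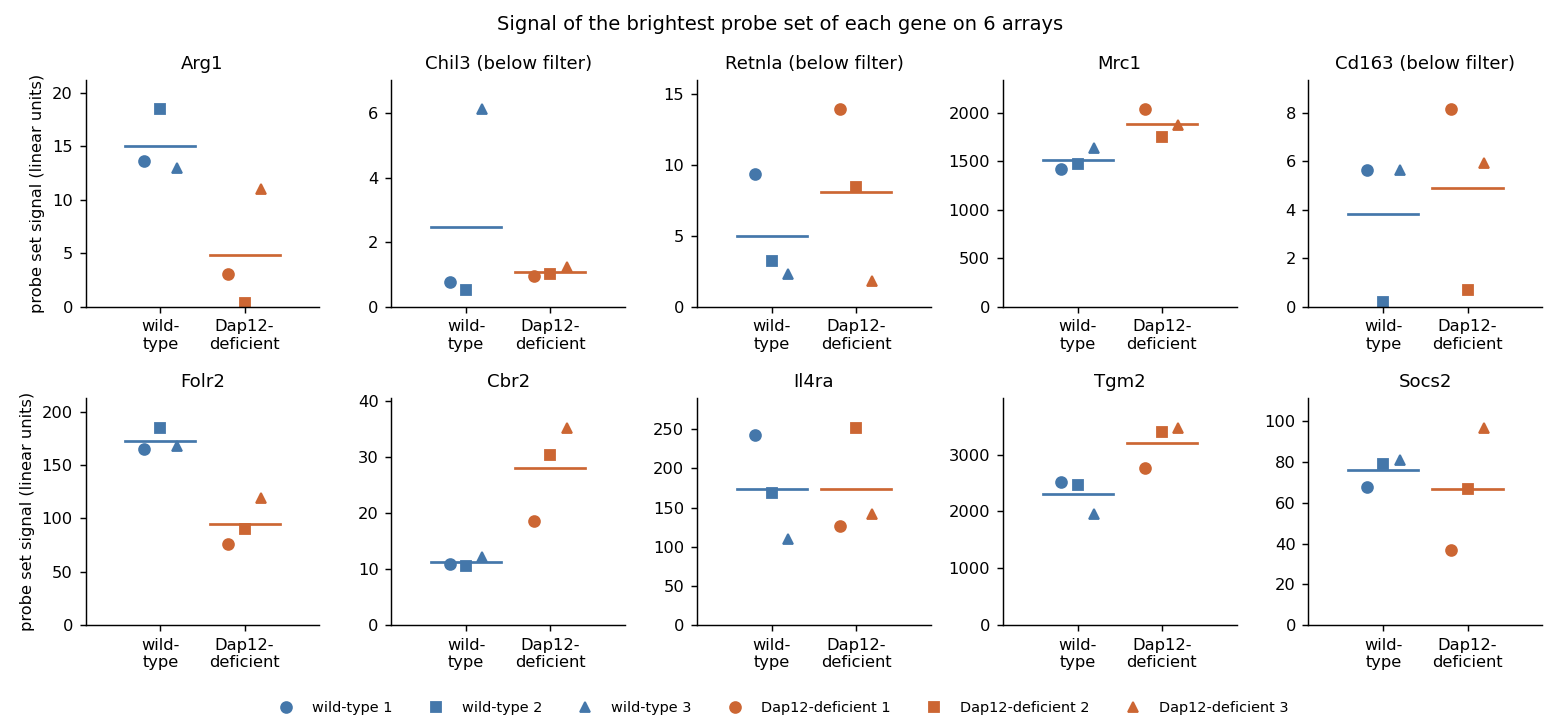
Signal in linear units of the brightest probe set of each of the 10 genes, with 1 point per array, 1 marker shape per array number and a line at each group mean (n = 3). Folr2 and Arg1 lie lower and Mrc1, Cbr2 and Tgm2 higher on all 3 Dap12-deficient arrays, while Chil3, Retnla and Cd163 stay under 14 on every array.

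Il4ra, the receptor chain that IL-4 and IL-13 share, did not separate the groups on any of its 3 probe sets. The brightest one (1421034_a_at) gave 243, 168 and 109 in wild-type against 127, 252 and 142 in Dap12-deficient cultures. Each group thus spread over about the same range, with wild-type array 1 and Dap12-deficient array 2 on top. The log2 difference was 0.00 (95% interval -0.68 to 0.69, limma adjusted p = 0.997), so differences within that interval lie inside the error. The other probe sets gave 31.1, 26.1 and 17.8 against 30.2, 43.6 and 22.4 (1423996_a_at, log2 difference 0.22) and 11.2, 29.1 and 19.1 against 22.1, 41.6 and 29.2 (1447858_x_at, 0.40). On all 3 probe sets the highest of the 6 arrays was Dap12-deficient array 2. Its wild-type order was not shared, since array 1 was highest on the first pair and lowest on the third. With a common median for all arrays, the sign of the brightest probe set turned to -0.22.

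Socs2, an inhibitor of JAK and STAT signalling that acts mainly on the growth hormone receptor and STAT5, gave differences on both sides of 0. Of its 6 probe sets 3 were tested. The brightest (1418507_s_at) gave 67.7, 79.0 and 81.2 in wild-type against 37.0, 67.0 and 96.8 in Dap12-deficient cultures, so that the Dap12-deficient arrays held both the lowest and the highest value. Its log2 difference was -0.21 (SE 0.27), and it was 0.0758 without Dap12-deficient array 1. The next (1449109_at) gave 30.9, 48.8 and 32.2 against 51.7, 39.2 and 39.1, with a difference of 0.17 (SE 0.21) that turned to -0.0144 with a common median. On this one Dap12-deficient array 1 was the highest rather than the lowest. The third (1442586_at) gave 11.7, 4.21 and 20.4 against 11.5, 21.7 and 16.4, a difference of 0.24 (SE 0.24). The limma adjusted p of the 3 lay between 0.747 and 0.802.

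Among the enzymes and secreted products, Tgm2 was the gene with the most tested probe sets on the array. It encodes transglutaminase 2, which cross-links proteins and is a marker of alternative activation shared by mouse and human macrophages. All 6 of its probe sets were higher in Dap12-deficient cultures, by a log2 difference of 0.47 to 0.76, and on 5 of them no array overlapped between the groups. The brightest (1433428_x_at) gave 2517, 2460 and 1954 in wild-type against 2760, 3393 and 3471 in Dap12-deficient cultures, a ratio of means of 1.39 (log2 difference 0.47, with SE 0.18 and adjusted p = 0.411 in limma). Every Dap12-deficient array lay above every wild-type array, with array 1 nearest to them. The second (1455900_x_at) gave 1990, 1919 and 1689 against 2455, 3068 and 3181 (log2 difference 0.63, with SE 0.18 and adjusted p = 0.335 in limma).

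The other 4 probe sets of Tgm2 showed the same order of groups with more spread. The third (1437277_x_at) gave 1878, 1636 and 1411 against 1668, 2545 and 2768, where Dap12-deficient array 1 fell among the wild-type arrays. The fourth (1417500_a_at) gave 658, 806 and 591 against 842, 1256 and 1021, with a difference of 0.58 (SE 0.21). The fifth (1426004_a_at) gave 37.6, 56.7 and 39.2 against 77.8, 116 and 63.4, with a difference of 0.73 (SE 0.24). Among Dap12-deficient arrays, array 1 was the lowest on 5 of the 6 probe sets, while array 2 was the highest on 3 and array 3 on 3. The sixth (1438942_x_at) was near the filter, at 0.248, 1.67 and 4.76 against 7.40, 19.9 and 18.6. None of the 6 passed (limma adjusted p 0.335 to 0.489), and they share a target, so they are not 6 independent results. All carry the suffixes that the array maker gives to probe sets whose probes may match several transcripts. The separation depended on the scaling: with a common median for all arrays, all 6 differences stayed above 0 (0.22 to 0.70), but the groups overlapped on 4 of the 6. With a term for myelin genes the third moved to 0.07 and the brightest to 0.24.

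**Figure D2:**
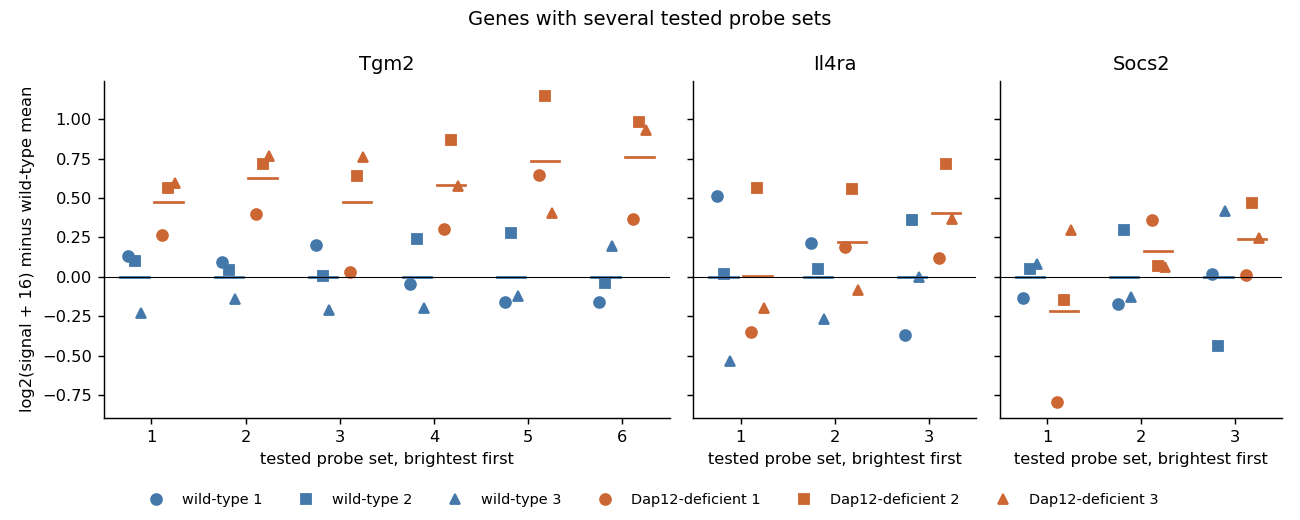
Log2(signal + 16) minus the wild-type mean for each tested probe set of Tgm2, Il4ra and Socs2, with 1 point per array and a line at each group mean (n = 3). The Dap12-deficient means of Tgm2 lie 0.47 to 0.76 above the wild-type means on all 6 probe sets, while the groups overlap on every probe set of Il4ra and Socs2.

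Arg1 encodes arginase 1, which turns arginine to ornithine and is the most used mouse marker of alternative activation. Its single probe set (1419549_at) was dim, at 13.7, 18.5 and 13.02 in wild-type against 3.08, 0.317 and 10.98 in Dap12-deficient cultures. All 3 Dap12-deficient arrays lay below the wild-type ones, array 3 only just. Its log2 difference was -0.61, with SE 0.22 and adjusted p = 0.380 in limma, and -1.99 (SE 0.80) with a pseudocount of 1 in place of 16, since so dim a signal makes the size of the difference depend on the pseudocount. With a term for Y-linked genes it was 0.0796 (SE 0.62). Whether such signals stand above background was not measured, because no detection calls were used here.

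Chil3, which encodes the chitinase-like lectin Ym1, and Retnla, which encodes the secreted protein Fizz1, had no tested probe set. Chil3 (1419764_at) was at 0.758, 0.501 and 6.12 in wild-type against 0.942, 1.02 and 1.24 in Dap12-deficient cultures, with a single array above 2 in all 6. A probe set annotated to both Chil4 and Chil3, near-identical neighbours, was also dim, at 0.920, 1.41 and 3.50 against 0.409, 1.497 and 3.18. Retnla (1449015_at) was at 9.36, 3.22 and 2.27 against 13.9, 8.47 and 1.82, so that array 1 was the highest in each group and the groups overlapped. The 6 untested probe sets of the list, 3 of them from Socs2, ranged from 0.181 to 14.2 over all arrays, around the filter's mean signal of 8.51. No fold change is given for them. In a limma fit without the filter, 0 of all 22 probe sets passed. At an unadjusted p under 0.05 there were 8 of 22, against 3885 of the 45037 probe sets in that fit.

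Of the border macrophage genes, Mrc1 was bright. It encodes the mannose receptor CD206, an endocytic lectin that is raised by IL-4 and marks macrophages of vessels and meninges. Its probe set (1450430_at) gave 1422, 1473 and 1631 in wild-type against 2034, 1743 and 1867 in Dap12-deficient cultures, a ratio of means of 1.25. Every Dap12-deficient array lay above every wild-type array by a narrow margin, 1743 against 1631. The log2 difference was 0.31 (SE 0.17, 95% interval -0.06 to 0.69, limma adjusted p = 0.541). With a common median it shrank to 0.06 (SE 0.19) and the groups overlapped. Cd163, the scavenger receptor for haemoglobin bound to haptoglobin, was below the filter (1419144_at) at 5.65, 0.181 and 5.62 against 8.14, 0.671 and 5.91, with array 2 the lowest in each group.

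Folr2 and Cbr2 lay on opposite sides of 0, neither past the threshold, and on the same side with a term for Y-linked genes. Folr2 encodes a folate receptor anchored to the membrane of tissue macrophages. Its probe set (1451648_a_at) gave 165, 185 and 168 in wild-type against 76.0, 90.5 and 119 in Dap12-deficient cultures. The wild-type arrays lay close together and all 3 Dap12-deficient arrays well below them, a ratio of 1.82 between the means (log2 difference -0.78, SE 0.20, 95% interval -1.23 to -0.33, limma adjusted p = 0.313). In bulk cultures, fewer cells of a type and less RNA per cell cannot be told apart. The difference was -0.65 to -0.93 with any 1 array left out and -1.004 with a common median, but 0.0735 (SE 0.54) with a term for Y-linked genes.

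Cbr2 encodes a carbonyl reductase of lung and of resident tissue macrophages. Its probe set (1418509_at) gave 10.9, 10.5 and 12.2 in wild-type, just above the filter, and 18.5, 30.3 and 35.2 in Dap12-deficient cultures. The wild-type arrays were tight and every Dap12-deficient array lay above them, with array 1 the nearest. The ratio of means was 2.50 and the log2 difference 0.68 (SE 0.20, 95% interval 0.23 to 1.12, limma adjusted p = 0.335). It kept its sign under all 20 alternatives that gave a value, from 0.29 to 1.57, with the highest under the term for Y-linked genes and 0.39 (SE 0.25) with a term for myelin genes. Whether Folr2 and Cbr2 respond unequally was not tested as a difference between genes, and levels of separate probe sets are not comparable.

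**Figure D3:**
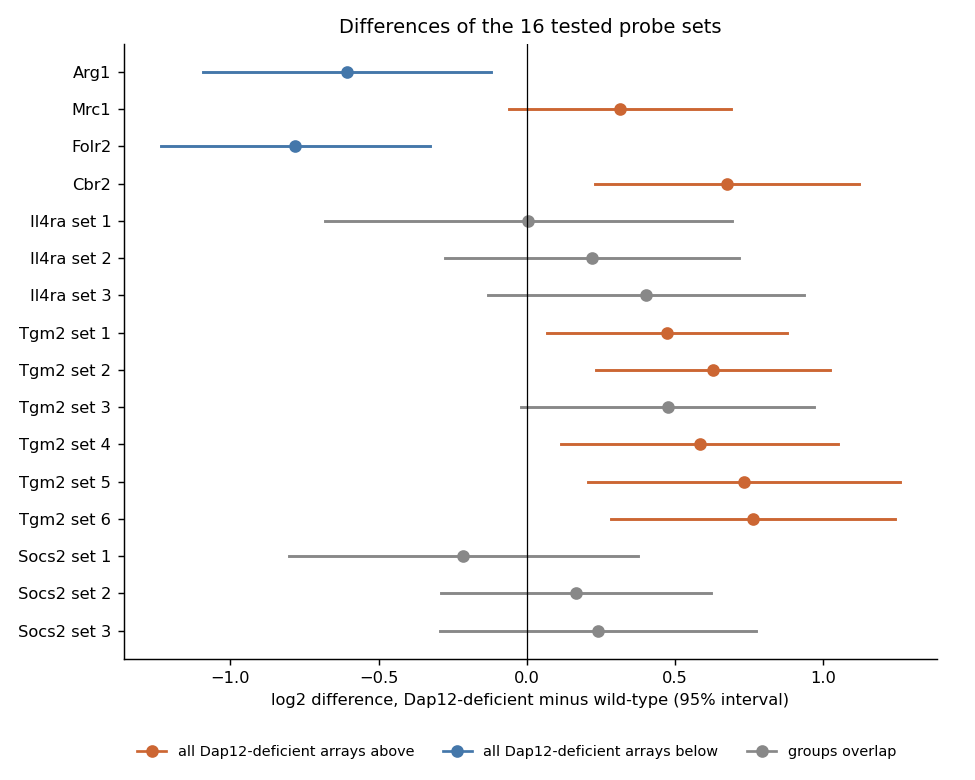
Log2 difference, Dap12-deficient minus wild-type, with its 95% interval from limma for the 16 tested probe sets, where sets of a gene are numbered from the brightest (n = 3 per group). The interval of Folr2 runs from -1.23 to -0.33 and that of Cbr2 from 0.23 to 1.12, whereas those of Mrc1, Il4ra, Socs2 and Tgm2 set 3 include 0.

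Among 12874 other genes, those whose profile over the 6 arrays lay nearest to Folr2 were Plpp1, a lipid phosphatase, Dot1l, a histone methyltransferase, Znrd1as, an antisense transcript, and Nup205, a nuclear pore component. Likeness was the root mean square difference of log2 profiles centred on their means, and it was 0.08 for Plpp1, 0.10 for Dot1l and 0.11 for the other 2 genes. Plpp1 gave 115, 123 and 116 in wild-type against 58.9, 56.1 and 80.9 in Dap12-deficient cultures, so its Dap12-deficient array 3 was the highest of its group, as in Folr2. Nearest to Cbr2 were Tmem202, the stress-induced chromatin protein gene Nupr1, the transcription factor gene Ets2 and Zbtb2, at 0.07 for the first 3 and 0.08 for Zbtb2. Ets2 gave 562, 545 and 558 against 808, 960 and 1059, with array 1 the lowest and array 3 the highest of the Dap12-deficient arrays, as in Cbr2. These genes were picked for their likeness from a large number, and the shared group difference is part of it.

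None of the other border macrophage genes passed the test. Of 20 listed genes 16 were tested, of which 6 were higher (37.5%, against 45.2% of all genes) and 10 lower, with a median log2 difference of -0.19 against -0.03 over all genes and 0 past the threshold in limma. At an unadjusted p under 0.05 there were 2, or 12.5%, against 9.63% of all genes. Cd209f, a C-type lectin of meningeal macrophages, gave 97.4, 113 and 128 in wild-type against 61.0, 55.9 and 47.3 in Dap12-deficient cultures (log2 difference -0.86, with SE 0.19 and adjusted p = 0.293 in limma). Its arrays did not overlap between the groups. Clec4n, which encodes the fungal receptor dectin-2, had 0.53 (SE 0.21), the bridging ligand Gas6 -0.45 (SE 0.24) and the endocytic adaptor Dab2 -0.35 (SE 0.20). Pf4, a chemokine of border macrophages, was at 2746, 2972 and 2968 against 1885, 2268 and 2793, and Lyve1, a hyaluronan receptor of perivascular macrophages, at 15.2, 1.30 and 16.9 against 8.72, 18.2 and 20.2. Both overlapped between the groups.

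In the pathway of IL-4 and IL-13, the kinases Jak1, Jak3 and Tyk2 and the factor Stat6 overlapped between the groups, while 5 of 14 tested genes did not: Irf4, Klf4, Cish and the decoy receptor gene Il13ra2 lay higher (4 of 14, against 7.54% of all genes) and Ptpn6 lower (1 of 14, against 8.85%). Irf4 and Il13ra2 reached the brightness filter through their Dap12-deficient arrays, which by itself favours a difference. Of 18 listed genes 14 were tested, 8 higher and 6 lower, with a median of 0.12 and 0 past the threshold. At an unadjusted p under 0.05 there were 5, or 35.7%, against 9.63% of all genes, Irf4 among them. The cytokine genes were dim, with Il4 at 0.805 to 11.8 and Il13 at 0.760 to 3.95 over the 6 arrays. Stat6 gave 280, 301 and 247 in wild-type against 203, 289 and 182 in Dap12-deficient cultures, and Il13ra1, the chain that pairs with Il4ra for IL-13, 101, 154 and 123 against 146, 135 and 127. Klf4, a factor that works with STAT6 in macrophages, gave 914, 1084 and 1234 against 1985, 1255 and 1765 (log2 difference 0.61, with SE 0.22 and adjusted p = 0.375 in limma). Cish, a relative of Socs2 that STAT5 induces, gave 30.9, 29.2 and 27.3 against 59.1, 38.9 and 49.5 (0.52, SE 0.19), while Il13ra2 was dim, at 1.61, 12.6 and 7.95 against 13.8, 12.7 and 13.9. Irf4, which drives alternative activation, had 0.74 (SE 0.21) from dim signals of 0.618 to 6.98 against 11.7 to 20.7, and the phosphatase gene Ptpn6 had -0.60 (SE 0.21).

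Further target genes of alternative activation did not pass the test either. Of 22 listed genes 14 were tested, 4 higher and 10 lower, with a median of -0.15 and 0 past the threshold, and 1 (7.14%) had an unadjusted p under 0.05, against 9.63% of all genes. That gene was Clec10a, which encodes the galactose lectin MGL1, at 27.7, 31.2 and 32.5 in wild-type against 9.21, 17.1 and 19.7 in Dap12-deficient cultures (log2 difference -0.58, SE 0.20). Its arrays did not overlap. Il1rn, the decoy ligand of the IL-1 receptor, had 0.43 (SE 0.21), the transcription factor gene Myc -0.40 (SE 0.20) and Atp6v0d2, a proton pump subunit, -0.44 (SE 0.27). Dim in all cultures were Chil4, Ccl17, Ccl22, Cdh1, Pdcd1lg2, Matk and Alox15, none of which reached the filter.

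**Figure D4:**
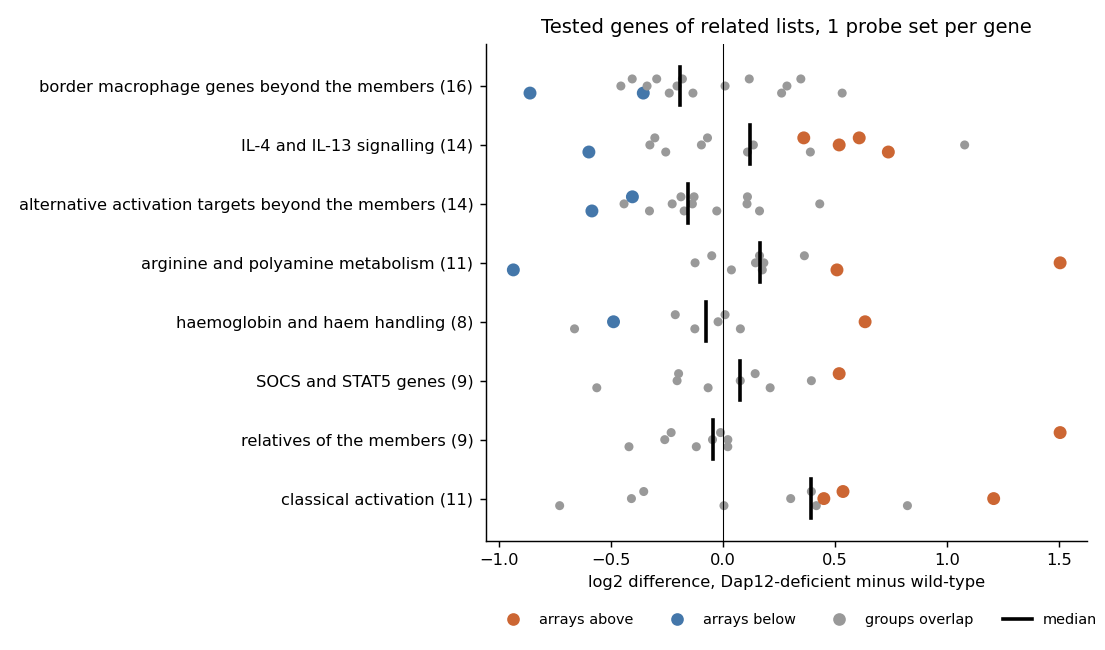
Log2 difference, Dap12-deficient minus wild-type, of every tested gene in 8 related lists, with 1 point per gene, a black bar at each median and the number of tested genes in parentheses. The medians run from -0.19 for border macrophage genes to 0.39 for classical activation, and no gene passed the threshold.

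Among enzymes beside Arg1, the mitochondrial arginase gene Arg2 gave 73.3, 36.0 and 90.3 in wild-type against 167, 136 and 388 in Dap12-deficient cultures, a ratio of means of 3.46 (95% interval of the log2 difference 0.68 to 2.33, adjusted p = 0.293 in limma). All 3 Dap12-deficient arrays lay above the wild-type ones, the opposite side from Arg1. Of the 13 listed genes of arginine and polyamine metabolism 11 were tested, 8 higher and 3 lower, with a median of 0.16, 0 past the threshold and 3 (27.3%) at an unadjusted p under 0.05, against 9.63% of all genes. The arginine transporter Slc7a1 had 0.51 (SE 0.19), the spermidine synthase gene Srm -0.93 (SE 0.38) and Azin1, an inhibitor of antizyme, 0.36 (SE 0.20). Nos2, the nitric oxide synthase that competes with arginase for arginine, stayed between 0.454 and 0.924 on all 6 arrays.

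Markers of other cells and of sex gave the following values, and their part in the differences above was not tested. Among 15 tested genes listed for microglia, 14 lay lower and 1 higher. Their summed signal was 24760 to 33722 in wild-type against 20498 to 26493 in Dap12-deficient cultures. Bright genes of that sum, such as Csf1r, Cd68 and Ptprc, are also expressed by other macrophages, so it is no measure of microglia alone. Oligodendrocyte genes were lower in 10 of 12, with sums of 7093 to 10663 against 3247 to 8313, and astrocyte genes higher in 10 of 12, with sums of 3487 to 5255 against 4431 to 6980. All 3 pairs of ranges overlapped. At an unadjusted p under 0.05 in limma there were 3 of the 15 microglia genes (20%), 9 of the 12 oligodendrocyte genes (75%) and 3 of the 12 astrocyte genes (25%). The share over all genes was 9.63%. The microglia genes Gpr34, Sall1 and Olfml3 lay lower without overlap (3 of 15, against 8.85% of all genes). The astrocyte genes Slc1a2, Slc1a3 and Slc4a4 lay higher without overlap (3 of 12, against 7.54%). The oligodendrocyte genes Cspg4, Myrf and Sox10 lay lower without overlap (3 of 12, against 8.85% of all genes). Myrf reached the filter through its wild-type arrays. Cspg4 was at 162 to 174 against 43.3 to 55.4 (limma adjusted p = 0.0613). Mbp, the myelin basic protein gene, gave 5535, 3839 and 5283 against 4714, 1142 and 358, whereas Olig1, an oligodendrocyte lineage factor, was at 1247 to 1532 against 1320 to 1505. Of the brightest astrocyte genes, Fabp7 was at 1476 to 2148 against 1853 to 3646 and Glul at 1448 to 2233 against 1459.5 to 2072. Of 8 measured monocyte and neutrophil genes 4 reached the filter. All 4 were higher, against 45.2% of all genes, and 0 had an unadjusted p under 0.05. Mpo and S100a8 reached the filter through Dap12-deficient arrays, which by itself favours a difference. The sums over all 8 genes, 148 to 190 against 199 to 210, did not overlap. Most of that sum was the integrin gene Itga4, at 91.6 to 124 against 119 to 139.5, followed by Ccr2 at 4.61 to 25.9 against 15.9 to 27.4. Plac8, S100a9, Camp and Ngp were below the filter. S100a9 lay lower without overlap, at 5.85 to 8.37 against 0.89 to 2.75, and Plac8 higher, at 1.45 to 4.22 against 6.18 to 11.8. Among endothelial genes, Flt1 gave 34.3, 24.6 and 49.8 against 14.4, 17.2 and 10.99, with no overlap, and Kdr 37.6, 17.1 and 27.0 against 41.4, 34.1 and 56.3, while Pecam1, Cdh5, Cldn5 and Tek did not reach the filter. Dendritic cell genes summed to 2480 to 2762 against 1765 to 2186, with 4 of 5 lower and nearly all of the sum from Fscn1. Fibroblast genes summed to 790 to 947 against 750 to 897, with 5 of 8 higher. Most of the fibroblast sum was Pdgfra, at 523 to 687 against 533 to 613. The collagen genes Col1a1 and Col1a2 were dim, at 4.79 to 8.04 against 7.87 to 15.9 and at 15.3 to 29.6 against 21.0 to 33.6. Neuronal genes summed to 420 to 526 against 311 to 426, with 5 of 8 lower. Xist, expressed from the inactive X chromosome, gave 251, 277 and 1164 in wild-type against 2514, 2483 and 1228 in Dap12-deficient cultures. These values are from its brightest probe set. Another Xist probe set gave 97.4, 88.9 and 99.8 against 2571, 427 and 594. A dimmer one gave 10.5, 3.78 and 11.6 against 56.4, 21.4 and 52.0. Of these, wild-type array 3 lay near Dap12-deficient array 3 on the brightest alone. Y-linked Eif2s3y gave 611, 571 and 649 against 64.5, 141 and 176, so the mix of sexes and the genotype cannot be fully told apart.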

How the data were processed

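RNA from 6 cultures of primary mouse microglia was amplified over repeated cycles and biotinylated, per the labels' protocols. The deposited values are linear probe set intensities, made with GCOS per the submitters' processing notes, whose version and settings were not stated there. The mean after trimming 2% at either end was 100.0 on every array, so the deposited intensities were already scaled. No depth applies to arrays, and 3 arrays per group limit the precision.

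Groups came from the labels, and replicates were numbered in order of deposit, so numbers pair nothing. Probe sets were tested at or above the 40th percentile of mean signal (8.51), without 64 controls, with limma 3.58.1 in R 4.3.3 on log2(signal + 16) with an intensity trend and no covariate, two-sided, Benjamini-Hochberg adjusted over 27022 probe sets, threshold 0.05. Lists were read with the brightest tested probe set per gene. Several listed genes, such as Il2rg and Lilra5, were not analysed here. The array annotation lists 34945 probe sets with 1 symbol, 932 with several and 9160 with none. Coordinates are given only for promoter windows, searched for motifs in Python 3.11.15. Plots used matplotlib 3.10.9.

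Named genes were all members, Tyrobp, the 4 tested genes with the smallest p of each related list, bright markers of the cell type lists (not all are named) and markers there at low signal, sex-linked genes and the 4 profiles nearest to Folr2 and Cbr2. Pf4, Lyve1, Il4, Il13, Stat6, Il13ra1, Il13ra2, Jak1, Jak3, Tyk2, Nos2 and the genes listed as dim were chosen after their values were seen. The members, lists and alternatives were chosen with earlier results of these data known. The steps were tested on simulated data, in 20 runs with 200 changed probe sets each. Of changes of log2 size 1, 32.9% were recovered, and of size 2, 84.7%. All member differences in the main fit were smaller than 1, and such sizes were not simulated.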

Additional observations from a re-analysis of the deposited data

How the results depend on the processing

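At an unadjusted p under 0.05 in limma there were 2 to 10 member probe sets under the 21 alternatives. The 2 were of 5 tested, without probe sets of the suffixes _s_at, _x_at and _a_at, against 2254 of 20253 over all. The 10 were of 16 tested, with array weights, against 2953 of 27022 over all. The count of 0 member probe sets past the limma threshold was the same under all 21 alternatives. The count over all probe sets, 2, became 5 with a common median, 4 with array weights, 4 with 1 probe set per gene, 3 with no intensity trend, 1 without probe sets of the suffixes _s_at, _x_at and _a_at, 11 with the sex term and 5 with the myelin term. With 1 array left out it ran from 2 to 171, with 171 without Dap12-deficient array 2, of which 155 were higher and 16 lower where the 2 were both lower, and 15 without Dap12-deficient array 1 (2 higher, 13 lower). The cause was not tested. A common median moved the median over all tested probe sets from 0.03 to -0.16, so every difference under it is to be read against that shift.

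Of 309 member differences under alternatives, 297 kept their direction and 12 reversed, none past the threshold. The brightest Il4ra probe set, 0.00, became -0.22 with a common median, -0.0545 with the sex term, -0.22 with the myelin term, -0.26 without wild-type array 3 and -0.27 without Dap12-deficient array 2, with a range of -0.27 to 0.26 when 1 array was left out. Il4ra 1423996_a_at became -0.27 with the sex term. Socs2 1449109_at became -0.0144 with a common median and -0.18 with the sex term, and Socs2 1418507_s_at became 1.55 with the sex term and 0.0758 without Dap12-deficient array 1, with a range of -0.47 to 0.0758 when 1 array was left out. With the sex term Arg1 became 0.0796 and Folr2 0.0735, with standard errors of 0.62 and 0.54, against 0.22 and 0.20 without it. No paired analysis was possible because the labels give the groups no shared replicate numbers.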

Other observations

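Genes of classical activation, the state opposed to the alternative one, did not pass the test. Of 16 listed genes 11 were tested, 8 higher (72.7%, against 45.2% of all genes) and 3 lower, with a median log2 difference of 0.39, 0 past the limma threshold and 4 (36.4%) at an unadjusted p under 0.05, against 9.63% of all genes. The prostaglandin synthase gene Ptgs2 gave 79.2, 71.5 and 108 in wild-type against 348, 125 and 232 in Dap12-deficient cultures, and the costimulatory receptor gene Cd40 70.9, 46.4 and 55.9 against 81.8, 83.7 and 106. Neither overlapped between the groups. The costimulatory ligand Cd86 had 0.45 (SE 0.18), and its arrays did not overlap either. These were 3 of 11 genes that lay higher without overlap, against 7.54% of all genes. The cytokine gene Tnf had 0.82 (SE 0.35), and its arrays overlapped.

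Genes that handle haemoglobin, haem and iron went both ways, with 3 higher and 5 lower of 8 tested and a median of -0.07. At an unadjusted p under 0.05 there were 3 (37.5%, against 9.63% of all genes), and 0 passed in limma. The iron exporter Slc40a1 gave 1392, 1282 and 1442 against 2599, 2205 and 1699, and the biliverdin reductase gene Blvra 1188, 1489 and 1556 against 994, 1136 and 872. Slc40a1 lay higher without overlap (1 of 8, against 7.54% of all genes) and Blvra lower (1 of 8, against 8.85%). Lrp1, the receptor of haem bound to haemopexin, had -0.66 (SE 0.29) and the haem transporter Slc48a1 -0.21 (SE 0.22).

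Relatives of the 10 genes were mostly dim, with 9 of 20 measured genes reaching the filter, 3 higher and 6 lower. Beside Arg2, the folate receptor gene Folr1 had -0.42 (SE 0.29), and the carbonyl reductases Cbr1 and Cbr4 had -0.26 (SE 0.19) and -0.23 (SE 0.20), on the other side of 0 from Cbr2. In the list of SOCS and STAT5 genes 5 of 9 were higher, with Stat5b at -0.56 (SE 0.27), Socs3 at 0.39 (SE 0.27) and Stat5a at -0.20 (SE 0.19).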
